A study of Mus musculus with 27 samples.

Results

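The genes described here are 40 members of the BMP and TGF-beta pathways, chosen by symbol from the 30153 genes listed for sorted Prx1-derived cells of the mouse hindlimb. The choice went by symbol and not by a measured value, but it was made with earlier results of these data known. The members were 7 BMP ligands, the protease Bmp1, 5 growth and differentiation factors (GDFs), 5 activin and TGF-beta ligands, 11 receptors, 5 secreted antagonists, 2 inhibitory Smads and 4 Id genes. All 40 symbols were found once each, and 39 passed the filter of at least 10 normalized counts in at least 3 libraries. Gdf7 did not pass, with values above 0 in 3 libraries, of which the highest was 48.3.

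The libraries came from Prx1CreER-GFP/Ai14/Rag1 mice of both sexes, aged 8 to 12 weeks and killed 3 days after the last of 2 tamoxifen injections. The inducible Cre is driven by the Prx1 promoter and switches on the tdTomato reporter, and every group carried the same reporter and the Rag1 mutation, so there was no group without them. Cells with tdTomato and without CD45 were sorted from muscle, periosteum and bone marrow of the femur and tibia into 3 subpopulations. P3 cells carried CD105 with variable CD200, whereas P1 and P2 cells lacked CD105 and were told apart by the presence of CD200 on P1 only. Each of the 9 groups had 3 libraries, 27 in all, and the study asked how Prx1 cells of these tissues differ before they form bone. Digestion took 60 minutes for muscle and 20 minutes for periosteum, while marrow was flushed, so tissue and preparation cannot be told apart. A figure legend of the study gives 3 mice per group for the sequencing. The labels do not say which animal gave which library, so libraries of different groups may share animals. The p-values measure the spread between libraries. CD105 is the product of Eng, itself a co-receptor for TGF-beta family ligands. As a sorting gene Eng is not counted among the members, but it is among the further pathway genes counted below.

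BMPs, GDFs, activins and TGF-betas are dimeric secreted ligands that assemble pairs of type I and type II serine/threonine kinase receptors. BMP receptors pass the signal to Smad1, Smad5 and Smad9 and raise the Id genes, whereas activin and TGF-beta receptors use Smad2 and Smad3. Noggin, gremlin, chordin and follistatin bind ligands outside the cell, and Smad6 and Smad7 limit the signal inside it. In bone the pathway is known for inducing cartilage and osteoblasts, and TGF-beta stored in the matrix is released when bone is resorbed.

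The Id genes are direct BMP targets that encode inhibitors of basic helix-loop-helix factors. Id1, Id2 and Id3 were called lower in bone marrow than in both other tissues, while Id4 was not. Promoters are shown for this contrast, for Id2, Id3 and Id4 only, since no promoter sequence was available for Id1. The sequences are the 250 bases before the RefSeq start on GRCm38.p6, in the direction of the gene. Capitals mark CAGAC, a Smad-binding motif that reads GTCTG on the other strand, and GGCGCC, a GC-rich BMP-responsive motif that reads the same on both strands. No marked copies overlap. The windows lie at chr12:25096093-25096342 on the minus strand for Id2, chr4:136143572-136143821 on the plus strand for Id3 and chr13:48260866-48261115 on the plus strand for Id4. In GENCODE M21, Id2 spans 25093799 to 25097140 and Id3 136143497 to 136145755, so these windows lie inside the annotated genes. The Id4 window lies before its gene start at 48261228.
Id2: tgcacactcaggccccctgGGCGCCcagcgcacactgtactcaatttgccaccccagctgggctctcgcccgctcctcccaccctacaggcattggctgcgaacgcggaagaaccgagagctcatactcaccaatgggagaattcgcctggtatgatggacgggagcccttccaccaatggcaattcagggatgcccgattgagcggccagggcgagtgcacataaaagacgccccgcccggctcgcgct
Id3: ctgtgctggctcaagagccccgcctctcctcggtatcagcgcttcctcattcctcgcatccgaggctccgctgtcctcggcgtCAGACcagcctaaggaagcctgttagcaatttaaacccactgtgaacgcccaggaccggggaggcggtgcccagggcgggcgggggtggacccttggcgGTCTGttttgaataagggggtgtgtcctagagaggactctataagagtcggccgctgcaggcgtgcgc
Id4: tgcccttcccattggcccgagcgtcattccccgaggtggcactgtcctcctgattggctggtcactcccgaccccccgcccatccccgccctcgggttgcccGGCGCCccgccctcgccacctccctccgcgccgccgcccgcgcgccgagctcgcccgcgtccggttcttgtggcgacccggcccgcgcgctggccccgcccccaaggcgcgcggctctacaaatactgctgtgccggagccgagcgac
The Id3 window held 2 copies of CAGAC and none of GGCGCC, and the Id2 and Id4 windows held 1 copy of GGCGCC each and none of CAGAC. Among 32851 promoters of this length, 42.2% held CAGAC and 9.59% held GGCGCC. Of the members, 26 had a promoter in the table, of which 12 held CAGAC and 7 held GGCGCC in at least 1 promoter.

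Several libraries stood apart from their labels, and the values bear on every result with P2. Library sums ran from 8631881 to 26230908 normalized counts, with 12396 to 21675 genes above 0, and the number of reads behind a value is unknown. Haemoglobin genes took 44.2% to 47.3% of the counts in bone marrow P2 and 24.1% to 38.6% in periosteum P2, against at most 4.28% elsewhere. The transgene entry stood at 1181 to 1296 in bone marrow P2 and at 4005 or more in every other library, and the summed level of 5 fibro-adipogenic markers was 463 to 847 there against at least 2293 elsewhere. In periosteum P2 the second replicate had a summed level of 97445 over 8 leukocyte markers, against 797 and 1552 in the others. Myofibre markers summed to 1697890 or more in muscle P2 and to at most 39521 elsewhere. The 5 chondrocyte markers found summed to 275154 to 663479 in periosteum P2, 66626 to 406461 in periosteum P1 and at most 172151 in the other groups. Each comparison that includes P2 was therefore also run without the P2 libraries, a choice made after seeing the data. In these bulk samples, fewer cells of a type and less RNA per cell cannot be told apart.

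**Figure D1:**
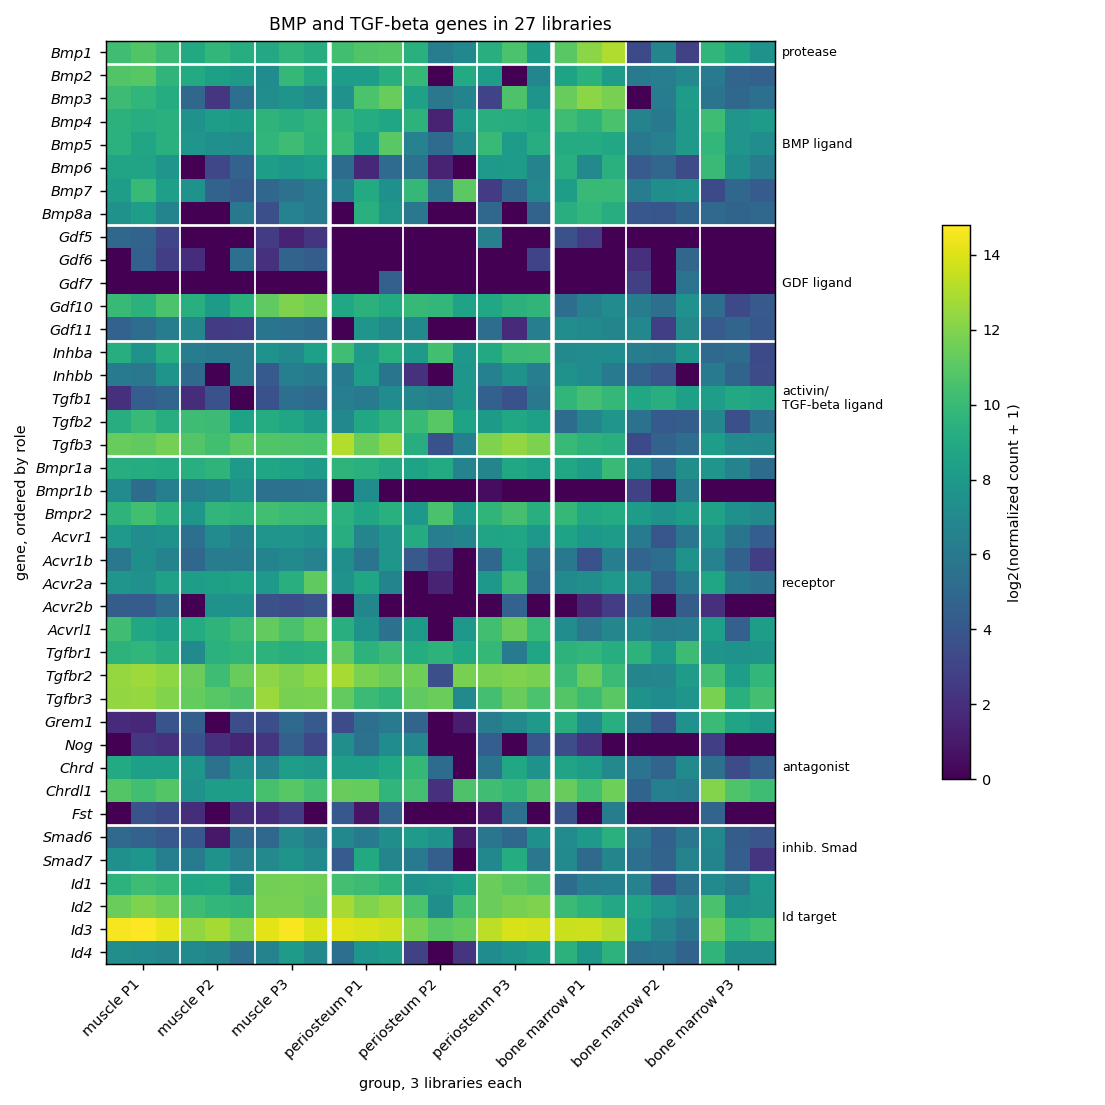
Level of the 40 genes (rows, by role) in the 27 libraries (columns, 3 per group), as log2(normalized count + 1). Id3 was at 9122 or more in all 9 P1 libraries, Tgfb1 was highest in bone marrow, and Bmpr1b was at 36.1 or more in every muscle library and at 0 in most others.

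Across the 9 groups, 28 of the 39 genes tested varied by limma's F-test (adjusted p below 0.05), beside a background of 60.2% of all 18442 genes. A gene was called in a comparison where the limma adjusted p was below 0.05 and the log2 fold change exceeded 1.5 in size. Fold changes are differences of mean log2(normalized count + 1), which understate changes of low genes. Between muscle and periosteum 6 genes were called, 4 higher and 2 lower in muscle, against 20.4% of all genes called (17.2% higher, 3.19% lower). Between muscle and bone marrow 14 were called, 12 higher and 2 lower in muscle, against 21.7% (10.9% higher, 10.8% lower). Between periosteum and bone marrow 12 were called, 8 higher and 4 lower in periosteum, against 20.8% (4.01% higher, 16.8% lower). Against bone marrow, muscle was without overlap higher for 4 called genes and lower for 1, beside 2.69% and 1.47% of all genes, called or not. Periosteum was so higher for 2 and lower for 1, beside 0.645% and 0.445%. Calling favours genes without overlap, so these shares are not a like comparison. The median log2 fold change of the 39 genes was 0.70, 1.37 and 0.41 in these comparisons, and that of all genes was 0.56, -0.10 and -0.69. The 3 comparisons share libraries and are not independent.

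Among subpopulations, averaged over tissues, P1 cells had 10 genes called higher than P2 and P3 and none lower, against 14.5% of all genes (6.88% higher, 7.67% lower). P2 cells had 18 called lower than P1 and P3 and none higher, against 26.9% (15.1% higher, 11.8% lower). P3 cells had 5 called higher and 1 lower than P1 and P2, against 5.74% (3.63% higher, 2.11% lower). The median log2 fold change of the 39 genes was 1.37 for P1, -1.49 for P2 and 0.20 for P3, while all genes had medians of -0.12, 0.11 and -0.06. These contrasts share every library, so a gene low in P2 also enters the values of P1 and P3. Without the P2 libraries, P1 against P3 gave 6 genes higher in P1 and none lower, beside 7.99% of all genes called (654 higher, 820 lower), and the 10 calls for P1 and 6 for P3 became these 6.

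Of 69 further pathway genes listed beside the members, 68 were found and 61 passed the filter. In muscle against bone marrow 27 of them were called higher and 5 lower, beside the 10.9% and 10.8% of all genes, led upward by Mstn (myostatin, log2 fold change 6.40), Ltbp4 (5.997) and Hfe2 (5.72) and downward by Smad9 (-3.67), Ltbp2 (-3.57) and Tll2 (-3.26). Without the P2 libraries, among which muscle P2 had the highest myofibre sums, 21 were higher and 3 lower. Of all genes, 16.3% were called in that fit (2032 higher, 981 lower), and Mstn stood at 5.21, Hfe2 at 4.04 and Ltbp4 at 5.80. Muscle against periosteum gave 12 higher and 2 lower, 23% of the 61 and near the 20.4% of all genes (17.2% higher, 3.19% lower). Periosteum against bone marrow gave 12 higher and 3 lower, beside 4.01% and 16.8% of all genes. In P1 cells over all tissues 20 were called higher and 2 lower, beside 6.88% and 7.67%, led upward by Nbl1 (4.18), Pcsk6 (4.03) and Bambi (3.67). P2 cells had 2 higher and 25 lower, beside 15.1% and 11.8% of all genes. P3 cells had 3 higher and 3 lower, beside 3.63% and 2.11%. These counts include the sorting gene Eng, called higher in P3 (5.12) and lower in P1 (-2.83) and P2 (-2.29). Its calls follow the sort on CD105 and are not a result about the pathway.

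The TGF-beta ligands separated bone marrow from the other tissues in opposite directions. Tgfb1, the isoform abundant in bone matrix and platelets, lies on chromosome 7 (25687002 to 25705077, GENCODE M21). In muscle, its 9 libraries ran from 0 to 41.3 normalized counts with a median of 12.4. In periosteum they ran from 12.2 to 225 with a median of 78.3, and in bone marrow from 310 to 1332 with a median of 491. No bone marrow library overlapped those of the other tissues. Tgfb1 was lower in muscle than in bone marrow (log2 fold change -5.67 ± 0.54 SE, limma adjusted p = 1.88e-08) and in periosteum than in bone marrow (-3.06 ± 0.54, limma adjusted p = 0.000213). Muscle was also below periosteum (-2.60 ± 0.54, limma adjusted p = 0.00119), with overlap, and without the P2 libraries that difference was -1.38 and not called (limma adjusted p = 0.117).

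Leukocyte markers were also highest in bone marrow. The 8 leukocyte markers summed to 11579 to 189689 in the bone marrow libraries, to 171 to 761 in muscle and to 33.0 to 1552 in periosteum apart from the replicate named above. Of the 8, 7 had a group mean of at least 10 in each bone marrow group, and Cd3e was at 0 there. In periosteum P2 replicate 2, where the sum was 97445, Tgfb1 stood at 78.3, below both other replicates at 105 and 225. In P1 cells leukocyte sums were 431 to 761 in muscle and 33.0 to 130 in periosteum. The Tgfb1 values of P1 cells were higher in periosteum, a difference that was not called. The 4 megakaryocyte markers summed to 1136 to 13186 in bone marrow, 60.8 to 2245 in muscle and 1.89 to 5242 in periosteum. The part of blood cells in the Tgfb1 levels of bone marrow was not tested.

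Tgfb2 and Tgfb3, the isoforms known from limb and connective tissue development, were lower in bone marrow. Tgfb3 (chromosome 12, 86056745 to 86079041) ran from 1265 to 3329 in muscle with a median of 1805, from 12.03 to 8542 in periosteum with a median of 3708 and from 9.03 to 1018 in bone marrow with a median of 137. The muscle and bone marrow libraries did not overlap (log2 fold change 3.79 ± 0.47, limma adjusted p = 1.22e-06). In periosteum the low values all lay in P2, at 597, 12.03 and 81.3, against at least 2812 in P1 and P3, and Tgfb3 was higher than in bone marrow (3.09 ± 0.47, limma adjusted p = 3.92e-05). Tgfb2 (chromosome 1, 186622792 to 186705989) ran from 286 to 1163 in muscle, 117 to 1942 in periosteum and 11.3 to 206 in bone marrow, with medians of 580, 453 and 44.8. It was higher in muscle than in bone marrow without overlap (3.72 ± 0.50, limma adjusted p = 3.16e-06) and higher in periosteum (3.36 ± 0.50, limma adjusted p = 2.47e-05). Both genes kept these calls without the P2 libraries. Over all tissues Tgfb3 was lower in P2 (-3.39 ± 0.41, limma adjusted p = 1.03e-06) and higher in P1 (2.47 ± 0.41, limma adjusted p = 0.000106), and P1 against P3 alone gave 1.03, below the minimum fold.

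On a per kilobase scale, Tgfb1 made up at most 1.41% of the summed level of the 3 isoforms in any muscle library. In bone marrow the share was 35.5% to 52.8% in P1, 81.0% to 92.0% in P2 and 36.6% to 69.6% in P3. Periosteum lay near muscle in P1 and P3, with at most 1.74%, while its P2 libraries ranged from 4.38% to 33.4%. Tgfb3 held 65.7% or more in every muscle library and 90.0% or more in every P1 and P3 library of periosteum. In bone marrow P1 it held 43.6% to 63.2%.

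**Figure D2:**
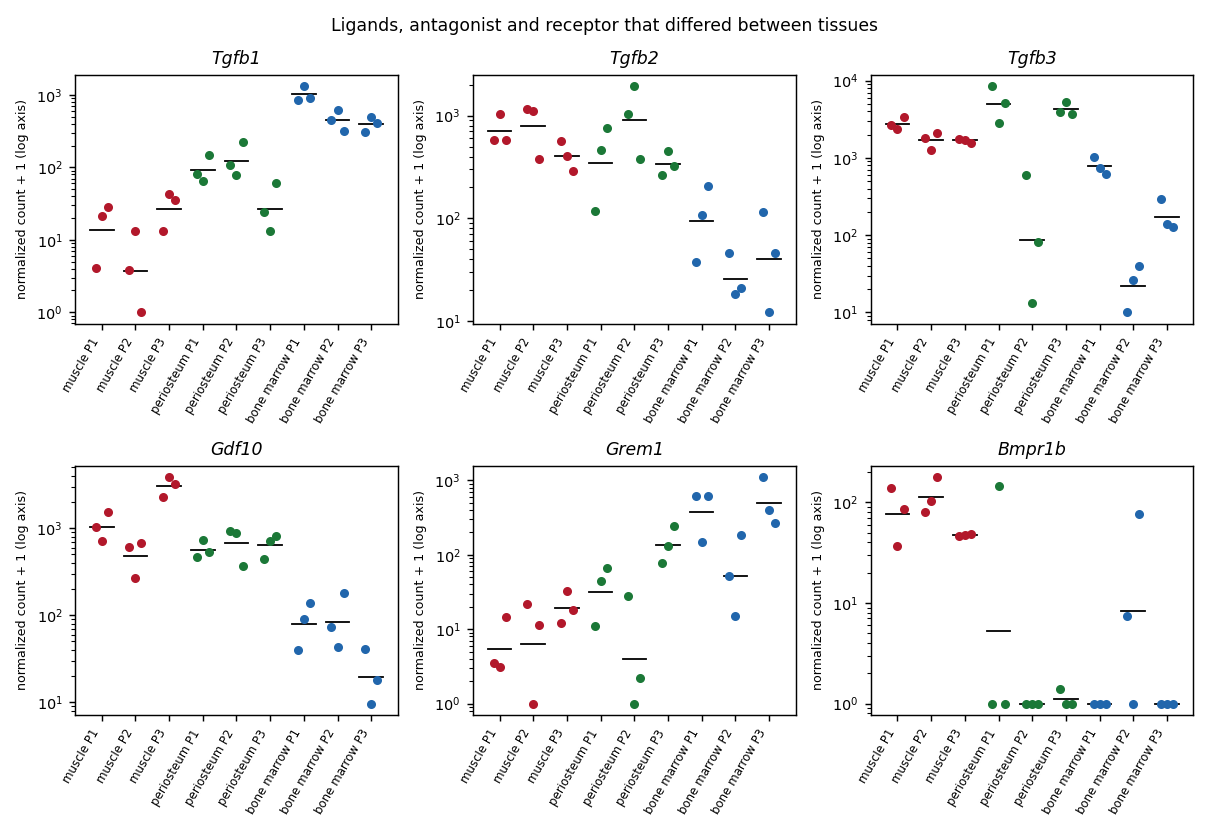
Normalized count + 1 (log axis) of 6 genes in each library, by group, with 3 points per group and a line at the mean of the log values. Tgfb1 and Grem1 were highest in bone marrow, Gdf10, Tgfb2 and Tgfb3 were higher in muscle than in bone marrow, and Bmpr1b was above 0 in all muscle libraries.

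The activin subunit gene Inhba was highest in periosteum. Its libraries there ran from 234 to 1276 (median 658), in muscle from 56.9 to 641 (median 187) and in bone marrow from 9.06 to 221 (median 72.5), with no overlap between periosteum and bone marrow. It was higher in periosteum than in bone marrow (log2 fold change 3.09 ± 0.46, limma adjusted p = 2.80e-05) and lower in muscle than in periosteum (-1.76 ± 0.46, limma adjusted p = 0.00714). The second of these calls was lost without periosteum P2 replicate 2 (-1.50, under the minimum fold) and without the P2 libraries (-1.29, limma adjusted p = 0.0890). Inhbb, the subunit of activin B, was called only in P2, where it was lower (-2.95 ± 0.82, limma adjusted p = 0.00713).

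Among the GDFs, Gdf10, a ligand close to Bmp3 (chromosome 14, 33923587 to 33937983), followed tissue most closely. Its libraries ran from 266 to 3869 in muscle (median 1030), from 371 to 941 in periosteum (median 721) and from 8.66 to 181 in bone marrow (median 42.2). Bone marrow did not overlap either tissue, and Gdf10 was higher in muscle (log2 fold change 4.51 ± 0.38, limma adjusted p = 2.57e-09) and in periosteum (3.63 ± 0.38, limma adjusted p = 1.87e-07). In muscle its highest values lay in P3, at 2301, 3869 and 3210, against at most 1534 in P1 and P2.

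The joint-forming ligands Gdf5 and Gdf6 were at 0 in most libraries. Gdf5 stood at 29.4, 25.4 and 7.37 in muscle P1, at 4.88 or less in the other muscle libraries and at 0 in all 9 P2 libraries. It was at 0 in all periosteum P1 libraries, so that no fold is given, and the difference from muscle P1 was called (limma adjusted p = 0.0295), a call lost when any of 5 single libraries was left out, with a pseudocount of 5 and by quantile normalization. Periosteum P3 replicate 1 held 84.8, and without that library Gdf5 was no longer called lower in P2 than in P1 and P3. Gdf6 was at 0 in 2 of 9 muscle libraries, 8 of 9 periosteum libraries and 7 of 9 bone marrow libraries, with a highest value of 41.5 in muscle. It was called higher in muscle than in periosteum (log2 fold change 2.54 ± 0.74, limma adjusted p = 0.0140) and in bone marrow (2.11 ± 0.74, limma adjusted p = 0.0345). The second call was lost when any of 13 single libraries was left out, and both were lost with a pseudocount of 5. Gdf11, related to myostatin, was called in no comparison.

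The BMP ligands varied more with subpopulation than with tissue. Bmp4 and Bmp2, the classical osteogenic BMPs, were called between no pair of tissues, and on the per kilobase scale Bmp4 was the highest or second highest of the BMP and GDF ligands in all 9 groups. The Bmp4 mean per kilobase was 509 in bone marrow P1, 333 in muscle P3, 294 in muscle P1 and 272 in periosteum P1. Bmp2 was first in muscle P1, at 430 per kilobase. Its 3 libraries there stood at 1775, 2001 and 810, against 312, 316 and 651 in periosteum P1 and 375, 681 and 276 in bone marrow P1. The Bmp2 libraries of muscle P1 lay above both other tissues, and this difference was not called.

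In P1 cells over all tissues, 4 of the 7 BMP ligands and Bmp1 were called higher, beside 6.88% of all genes. Bmp3, which opposes osteogenic BMPs and is made by osteoblasts, ran from 175 to 4841 in the 9 P1 libraries (median 1565) and from 0 to 1605 in the other 18 (median 65.8). Its log2 fold change was 4.45 ± 0.81 (limma adjusted p = 0.000324). Bmp1, the procollagen C-proteinase that also cleaves chordin, ran from 1084 to 8396 in P1 (median 1771) and from 6.44 to 1571 in P2 and P3 (median 492), a log2 fold change of 2.97 ± 0.44 (limma adjusted p = 2.43e-05). Bmp8a rose by 3.92 ± 0.98 (limma adjusted p = 0.00581), Bmp7 by 2.65 ± 0.61 (limma adjusted p = 0.00282) and Bmp2 by 2.59 ± 0.90 (limma adjusted p = 0.0434). All 5 overlapped between P1 and the other libraries. In P1 against P3 alone, Bmp1 (1.96), Bmp2 (2.99), Bmp3 (3.82) and Bmp7 (3.82) stayed called and Bmp8a did not (3.04, limma adjusted p = 0.0749). The Bmp2 call was lost when any of 18 single libraries was left out.

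The BMP ligands called in P3 were Bmp6 and Bmp7. Bmp6, the inducer of hepcidin, ran from 74.5 to 1042 in P3 (median 259), from 2.23 to 665 in P1 (median 218) and from 0 to 45.1 in P2 (median 9.66), with no overlap between P3 and P2. It was called higher in P3 than in P1 and P2 (log2 fold change 2.86 ± 0.67, limma adjusted p = 0.00765), but against P1 alone the difference was 0.89 (limma adjusted p = 0.392). Bmp7 ran from 5.25 to 113 in P3 (median 29.6), from 81.0 to 1040 in P1 (median 328) and from 18.7 to 2091 in P2 (median 163). It was lower in P3 than in P1 and P2 (-3.07 ± 0.61, limma adjusted p = 0.00181), also against P1 alone (-3.82, limma adjusted p = 0.000330). Between tissues, Bmp6 was the BMP ligand called, lower in periosteum than in bone marrow (-2.21 ± 0.78, limma adjusted p = 0.0382). That call was lost when any of 9 single libraries was left out, with a pseudocount of 0.1, with no filter, with rescaled totals, with only the groups compared and by quantile normalization (-0.93, limma adjusted p = 0.406).

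P2 cells had lower Bmp1, Bmp3, Bmp4, Bmp5, Bmp6 and Bmp8a than P1 and P3. Bmp5, of the same ligand class as Bmp6 and Bmp7, ran from 35.6 to 249 in P2 (median 135) and from 149 to 2032 in P1 and P3 (median 626), with a log2 fold change of -2.35 ± 0.37 (limma adjusted p = 3.44e-05). Bmp6 fell most (-4.39 ± 0.67, limma adjusted p = 2.41e-05). Bmp4 was 1.83 in periosteum P2 replicate 2, against 60.8 or more in every other library, and without it the Bmp4 difference of -2.27 became -1.46 and was not called. Haemoglobin, leukocyte and myofibre markers moved with P2 as given above, and their part in the lower levels was not tested.

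Between muscle and bone marrow 5 of 11 receptors were higher in muscle and none lower, beside 10.9% of all genes higher and 10.8% lower. Between muscle and periosteum 3 were higher in muscle, beside 17.2%, and between periosteum and bone marrow none was called by limma. The TGF-beta receptors Tgfbr3 (betaglycan, a co-receptor) and Tgfbr2 ranked first and second among receptors per kilobase in all 3 muscle groups, with Tgfbr3 at 766 and Tgfbr2 at 694 per kilobase in muscle P1. Tgfbr2 ran from 1190 to 6394 in muscle (median 4725) and from 105 to 2656 in bone marrow (median 868), a log2 fold change of 2.79 ± 0.70 (limma adjusted p = 0.00361). Tgfbr3 ran from 1637 to 6130 in muscle (median 3522) and from 146 to 3596 in bone marrow (median 1137), a log2 fold change of 2.20 ± 0.44 (limma adjusted p = 0.000414). Both were also lower in P2, Tgfbr2 by -2.34 ± 0.60 (limma adjusted p = 0.00419) and Tgfbr3 by -1.64 ± 0.38 (limma adjusted p = 0.00178). Those P2 calls were lost without a single periosteum P2 library, Tgfbr2 without replicate 2 (-1.45) and Tgfbr3 without replicate 3 (-1.16). Tgfbr2 stood at 11.3 in that replicate 2 and at 2944 and 3385 in the others.

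Bmpr1b, a type I BMP receptor needed for cartilage condensation, was the receptor most restricted to muscle. Its 9 muscle libraries ran from 36.1 to 177 (median 79.1). It was at 0 in 7 of 9 periosteum libraries and 7 of 9 bone marrow libraries, with highest values of 145 in periosteum P1 and 75.2 in bone marrow P2. The difference was called against periosteum (log2 fold change 5.36 ± 0.82, limma adjusted p = 4.26e-05) and bone marrow (5.20 ± 0.82, limma adjusted p = 2.78e-05), also without the P2 libraries and under every alternative run. In muscle P1 its libraries stood at 137, 36.1 and 83.9, and in bone marrow P1 all 3 were at 0, so that no fold is given (limma adjusted p = 0.00447). Bmpr1a, its widely expressed relative, and the type II receptor Bmpr2 were called between no pair of tissues.

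Acvrl1, the endothelial type I receptor ALK1, was higher in muscle than in bone marrow without overlap, at 331 to 2471 (median 1118) against 22.5 to 320 (median 113), with a log2 fold change of 3.20 ± 0.81 (limma adjusted p = 0.00420). Its highest values were in P3 of muscle (2416, 1514 and 2471) and of periosteum (1255, 2634 and 972). The 6 endothelial markers moved with it, summing to 27074 to 45827 in muscle P3, 17015 to 33996 in periosteum P3 and 1981 to 8024 in bone marrow P3, against at most 11801 in any P1 or P2 library, and all 6 reached a group mean of 10 in each P3 group. Their part in the Acvrl1 levels was not tested.

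The activin type II receptors were called higher in muscle, but not in all subsets. Acvr2a was at 0, 1.68 and 0 in periosteum P2 and at 39.3 to 1080 in the other periosteum libraries, against 175 to 2306 in muscle. The log2 fold change of muscle against periosteum was 3.28 ± 0.62 (limma adjusted p = 0.000476) and was 0.96 (limma adjusted p = 0.421) without the P2 libraries. Over all tissues Acvr2a was lower in P2 (-2.91 ± 0.54, limma adjusted p = 0.000207), and its difference of 1.72 in P3 (limma adjusted p = 0.0476) was 0.35 against P1 alone. Acvr2b was at 0 in 7 of 9 periosteum libraries and 1 of 9 muscle libraries (3.17 ± 1.05, limma adjusted p = 0.0302), a call lost when any of 7 single libraries was left out. Acvr1b and Tgfbr1 were called in no comparison.

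Of the 5 antagonists, Grem1 and Nog were called between tissues. Grem1 (gremlin 1, chromosome 2, 113746164 to 113758646), which binds BMP2 and BMP4 and marks skeletal stem cells of marrow, ran from 0 to 32.0 in muscle (median 10.9), from 0 to 245 in periosteum (median 43.8) and from 14.1 to 1101 in bone marrow (median 270). It was lower in muscle (log2 fold change -4.62 ± 0.75, limma adjusted p = 4.35e-05) and in periosteum (-3.05 ± 0.75, limma adjusted p = 0.00443) than in bone marrow. Bone marrow P2 stood at 51.3, 14.1 and 181, P1 at 606, 147 and 608 and P3 at 1101, 403 and 270. The overlap with muscle lay in bone marrow P2, and that with periosteum in bone marrow P2 and P1 replicate 2. Within bone marrow the 4 marrow stroma markers moved with it, at 31948 to 115908 in P1 and P3 and 1196 to 3053 in P2. Across tissues they did not, at 14039 to 16624 in muscle P3 and 17557 to 41341 in periosteum P3. They stood at 765 to 11722 in the P1 and P2 libraries of these 2 tissues. The part of marrow stroma cells in the Grem1 levels was not tested. Grem1 was also called lower in P2 (-2.60 ± 0.65, limma adjusted p = 0.00336) and higher in P3 (2.38 ± 0.65, limma adjusted p = 0.0222), but against P1 alone the P3 difference was 1.44 and not called.

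Nog, which encodes noggin, was highest in periosteum P1, at 158, 47.5 and 142. It stood at 0, 4.17 and 3.38 in muscle P1, without overlap (log2 fold change -5.19 ± 1.48 for muscle against periosteum, limma adjusted p = 0.0403), and at 10.1, 3.51 and 0 in bone marrow P1. The muscle difference lost its call when any of 7 single libraries was left out, with a pseudocount of 0.1, with no filter, with totals rescaled without haemoglobin and with only the groups compared. Within periosteum it was called higher in P1 than in P2 and P3 (4.16 ± 1.28, limma adjusted p = 0.0404), although P2 replicate 1 stood at 114. That call was lost when any of 7 single libraries was left out. Over all subpopulations Nog was higher in periosteum than in bone marrow (2.99 ± 0.86, limma adjusted p = 0.0126), also without the P2 libraries (3.34).

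The chordin genes followed subpopulation. Chrdl1 (chordin-like 1) was the highest antagonist per kilobase in 8 of the 9 groups, at 353 in bone marrow P3, 335 in bone marrow P1 and 291 in periosteum P1. It ran from 3.36 to 1591 in P2 (median 193) and from 851 to 4264 in P1 and P3 (median 1722), with a log2 fold change of -3.54 ± 0.64 (limma adjusted p = 0.000159). It was called higher in P1 (1.92 ± 0.64, limma adjusted p = 0.0332), but that call was lost when any of 7 single libraries was left out, and P1 against P3 alone gave 0.20. The values of periosteum P2 were 1346, 3.36 and 1591, so that 2 of its replicates lay within the range of P1 and P3. Chrd was higher in P1 (2.16 ± 0.73, limma adjusted p = 0.0375), at 124 to 534 in P1 (median 319) and 0 to 924 elsewhere (median 73.0). That call was lost when any of 13 single libraries was left out, and P1 against P3 alone gave 1.88 (limma adjusted p = 0.0121). Fst (follistatin), Smad6 and Smad7 were called in none of the 15 comparisons over all libraries, and Fst was at 0 in 13 libraries.

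Of all members, Id3 had the highest mean normalized count. Id3 (chromosome 4, 136143497 to 136145755) ran from 4202 to 28223 in muscle (median 18862), from 2017 to 18047 in periosteum (median 13067) and from 53.5 to 13168 in bone marrow (median 1272). It was lower in bone marrow than in muscle (log2 fold change of muscle 3.44 ± 0.25, limma adjusted p = 1.24e-10) and periosteum (2.68 ± 0.25, limma adjusted p = 1.62e-08). Id2 was higher in muscle by 2.41 ± 0.40 (limma adjusted p = 5.47e-05) and in periosteum by 2.54 ± 0.40 (limma adjusted p = 5.58e-05). Id1 (chromosome 2, 152736251 to 152737410) ran from 164 to 3349 in muscle (median 962), 196 to 2745 in periosteum (median 1106) and 14.1 to 234 in bone marrow (median 78.5). The Id1 difference was 3.84 ± 0.36 for muscle (limma adjusted p = 1.37e-08) and 3.54 ± 0.36 for periosteum (limma adjusted p = 1.00e-07), and all 6 calls held under every alternative run.

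Id4 had another pattern. It ran from 45.2 to 282 in muscle (median 121), 0 to 300 in periosteum (median 143) and 25.8 to 824 in bone marrow (median 167). It was called lower in periosteum than in bone marrow (log2 fold change -1.99 ± 0.53, limma adjusted p = 0.00755), where periosteum P2 stood at 6.70, 0 and 3.64. With P1 and P3 alone the difference was -1.18 (limma adjusted p = 0.173).

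All 4 Id genes were lower in P2 than in P1 and P3, with log2 fold changes of -2.06 ± 0.31 for Id1 (limma adjusted p = 2.18e-05), -1.91 ± 0.35 for Id2 (limma adjusted p = 0.000176), -3.19 ± 0.21 for Id3 (limma adjusted p = 6.92e-11) and -3.20 ± 0.46 for Id4 (limma adjusted p = 9.85e-06). These 4 calls held under every alternative that includes P2. In P1, Id3 (2.47 ± 0.21, limma adjusted p = 8.00e-09) and Id4 (1.63 ± 0.46, limma adjusted p = 0.0130) were called higher, but P1 against P3 alone gave 1.17 and 0.03. Id1 was higher in P3, at 3170, 3349 and 3016 in muscle P3 and 2745, 2098 and 1674 in periosteum P3, against 768, 1158 and 962 in muscle P1 and 1323, 1106 and 797 in periosteum P1. The log2 fold change of P3 against P1 and P2 was 1.98 ± 0.31 (limma adjusted p = 0.000173), and against P1 alone it was 1.27, below the minimum fold. Endothelial markers were highest in P3, as given beside Acvrl1, and their part was not tested.

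**Figure D3:**
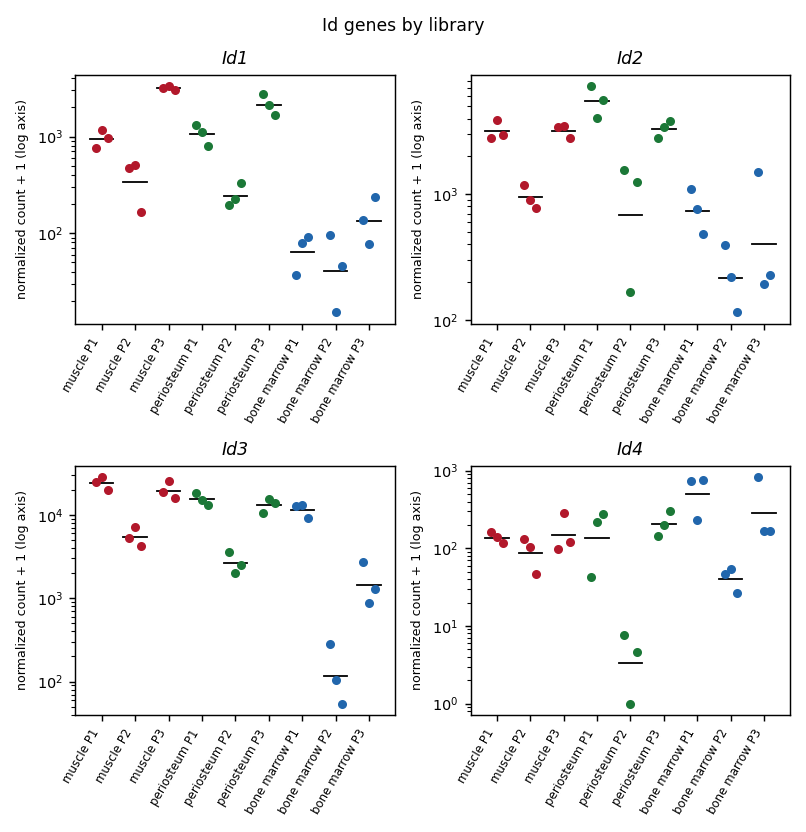
Normalized count + 1 (log axis) of Id1, Id2, Id3 and Id4 in each library, by group, with 3 points per group and a line at the mean of the log values. Bone marrow libraries were at most 234 for Id1 while muscle P3 was at 3016 or more, and bone marrow P2 was at 285 or less for Id3 while bone marrow P1 was at 9122 or more.

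Within tissues, P1 cells were compared with P2 and P3 of the same tissue. In muscle none of the 39 genes was called by limma, against 1.05% of all genes, and 7 had an unadjusted p below 0.05. In periosteum 5 were higher and none lower, against 9.16% (4.32% higher, 4.84% lower). In bone marrow 9 were higher and none lower, against 18.9% (7.48% higher, 11.5% lower). The P1 libraries lay above the other 6 without overlap for 1 of the 5 and 8 of the 9 genes. Over all genes tested, called or not, they did so for 2.84% and 12.8%, which is not a like comparison with called genes. The sorting gene Cd200 was itself not called in muscle (log2 fold change 1.30 ± 0.85, limma adjusted p = 0.769). It was called higher in P1 of periosteum (3.47) and bone marrow (5.37), which limits a comparison of the counts between tissues. The median log2 fold change of the 39 genes was 0.59 in the P1 cells of muscle, 1.48 in those of periosteum and 2.06 in those of bone marrow, beside -0.39 over all genes in bone marrow and no shift in the others.

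Bone marrow P1 cells had higher Bmp1, Bmp3, Bmp7 and Bmp8a than the other bone marrow cells. Bmp3 stood at 2615, 4841 and 3438 in bone marrow P1, at 0, 73.2 and 291 in P2 and at 51.0, 29.8 and 41.6 in P3, a log2 fold change of 6.70 ± 1.41 (limma adjusted p = 0.00134). Bmp1 stood at 2070, 4813 and 8396 in P1, at 9.04, 104 and 6.44 in P2 and at 861, 423 and 183 in P3 (5.60 ± 0.76, limma adjusted p = 8.98e-06). Bmp8a stood at 639, 889 and 583 in P1 and at 14.4 to 31.7 in P2 and P3 (4.86 ± 1.70, limma adjusted p = 0.0449). In each of these the P1 libraries lay above all 6 others.

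Id3 was also higher in bone marrow P1, at 12571, 13168 and 9122, against 285, 104 and 53.5 in P2 and 2717, 886 and 1272 in P3 (log2 fold change 4.79 ± 0.37, limma adjusted p = 1.82e-09). Bmp7 was higher by 3.80 ± 1.05 (limma adjusted p = 0.0119), at 312, 1039 and 1040 in P1 and 9.07 to 192 elsewhere. Tgfb3 was higher by 3.66 ± 0.71 (limma adjusted p = 0.000638), Acvr1 (ALK2, a type I BMP receptor) by 2.63 ± 0.76 (limma adjusted p = 0.0162) and Bmpr1a by 2.44 ± 0.67 (limma adjusted p = 0.0115). For these the P1 libraries also lay above the other 6. Id4 was called with overlap (2.22 ± 0.79, limma adjusted p = 0.0490).

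Osteoblast markers moved with bone marrow P1: their sum was 774393 to 1003680 there against 1547 to 49243 in bone marrow P2 and P3. All 7 had a group mean of at least 10 in each bone marrow group. The 5 chondrocyte markers found summed to 89284 to 172151 in bone marrow P1 and 91.3 to 7905 in bone marrow P2 and P3. Of these 5, only 3 had a group mean of at least 10 in bone marrow P1, against 5 in P2 and 2 in P3, so the sum does not stand for the whole list. The part of either list was not tested. Without the P2 libraries, 11 genes were called higher in bone marrow P1 than P3 and none lower, beside 9.64% of all genes (1022 higher, 756 lower). They included Bmp1 (3.43), Bmp3 (6.43), Bmp7 (5.23), Tgfb3 (2.17), Bmpr1a (2.52) and Id3 (2.98). Bmp8a, Acvr1 and Id4 were no longer called, and Chrd (3.53), Smad6 (3.08), Inhba (2.56), Gdf10 (2.05) and Bmpr2 (1.59) were added. The count of 9 fell to 4 without bone marrow P1 replicate 3.

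In periosteum the genes called higher in P1 were Nog, Acvr2a (3.53 ± 0.93, limma adjusted p = 0.0163), Tgfb3 (3.04 ± 0.71, limma adjusted p = 0.00703), Bmp5 (2.11 ± 0.64, limma adjusted p = 0.0376) and Id2 (1.86 ± 0.60, limma adjusted p = 0.0498). Id2 stood at 7283, 4058 and 5652 in P1, at 1548, 166 and 1257 in P2 and at 2798, 3410 and 3858 in P3, so that P1 lay above the other 6 libraries. The P1 and P3 libraries of Tgfb3 overlapped, at 8542, 2812 and 5123 against 3925, 5266 and 3708. Without the P2 libraries none of the 5 was called, and Acvr2a went from 3.53 to -0.12. All 5 calls were lost without periosteum P1 replicate 1, where 2 other genes were called. Without P2 replicate 2, Tgfb3 and Acvr2a stayed called, without P1 replicate 2, Tgfb3 and Bmp5 did, and without P2 replicate 1 the count was 9. The Id2 call was lost in 22 of the 27 fits without a single library, with no filter and under all 3 other scalings. The Bmp5 call was lost when any of 4 single libraries was left out, with no filter and under the same scalings. Osteoblast markers summed to 192205 to 448473 in periosteum P1 and to 6334 to 109388 in periosteum P2 and P3, and their part was not tested.

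**Figure D4:**
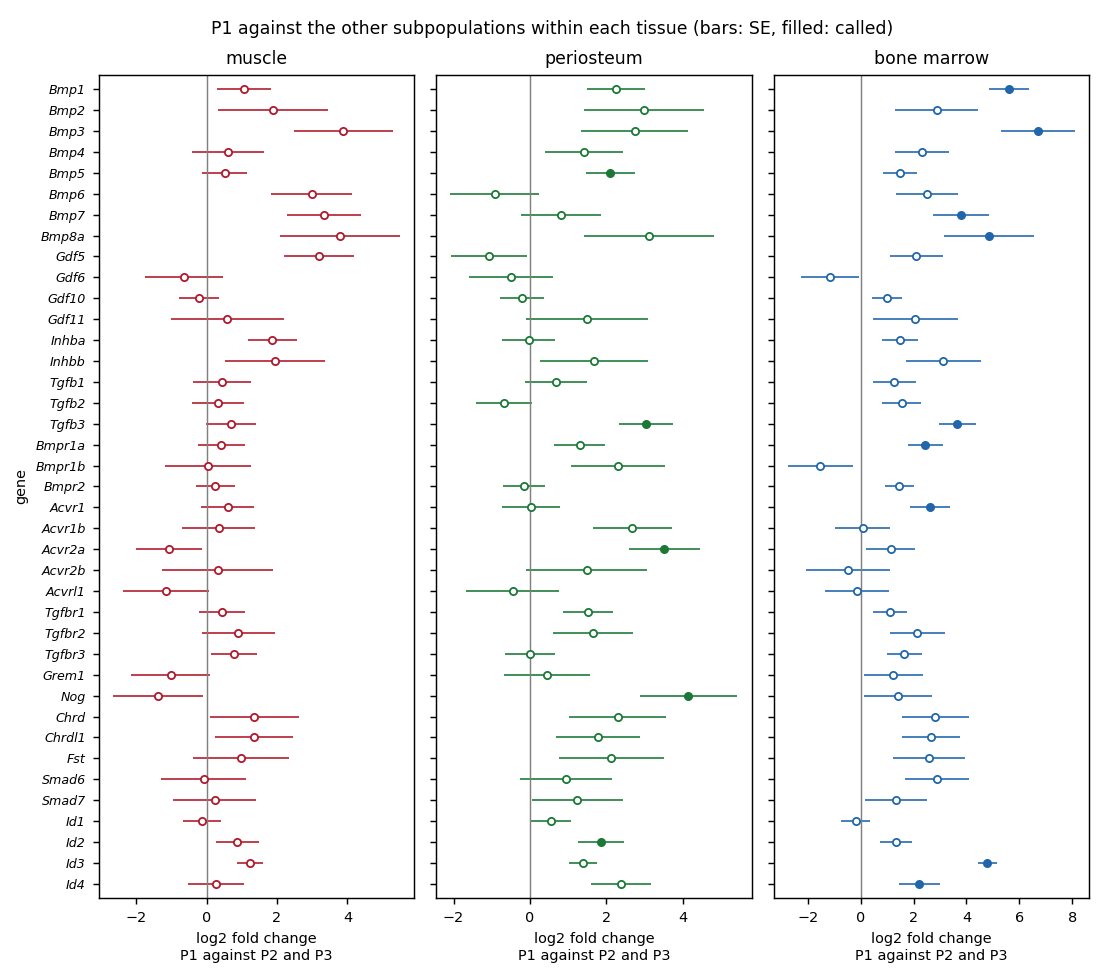
Log2 fold change of P1 against P2 and P3 within muscle, periosteum and bone marrow for the 39 genes tested, with bars for the standard error and filled points for called genes. The called genes numbered 0 for muscle, 5 for periosteum and 9 for bone marrow, all higher in P1, with Bmp3 (6.70), Bmp1 (5.60) and Id3 (4.79) among the largest.

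The change of P1 cells against the rest was compared between tissues by interaction terms. For Id3 it was larger in bone marrow than in muscle by 3.56 ± 0.52 on the log2 scale (limma adjusted p = 9.58e-05) and than in periosteum by 3.40 ± 0.52 (limma adjusted p = 0.000406). For Bmp1 it was larger in bone marrow than in muscle by 4.54 ± 1.07 (limma adjusted p = 0.00971). These were the 2 genes called among 39 for bone marrow against muscle, beside 7.41% of all genes, and Id3 was the gene called for bone marrow against periosteum, beside 2.8%. No gene was called by limma for periosteum against muscle, beside 2.44%, where 5 had an unadjusted p below 0.05. Without the P2 libraries the Id3 differences were 2.68 and 2.75 and stayed called, and that of Bmp1 was 2.35 and did not (limma adjusted p = 0.184).

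P1 cells alone were also compared between tissues, which leaves out P2 and P3. Muscle P1 against periosteum P1 gave 1 gene higher (Gdf5) and 1 lower (Nog), against 4.9% of all genes (4.34% higher, 0.559% lower). Muscle P1 against bone marrow P1 gave 4 higher and 2 lower, against 8.34% (5.4% higher, 2.94% lower). Periosteum P1 against bone marrow P1 gave 3 higher and 1 lower, against 4.87% (1.91% higher, 2.96% lower). None of these 12 calls had overlap between the libraries, which calling with 3 libraries a side favours. Over all genes tested, called or not, libraries did not overlap for 15.5% higher and 8.1% lower in muscle against periosteum. The shares were 20.5% and 18.6% for muscle and 8.44% and 14.7% for periosteum against bone marrow. They are not shares of called genes, so this is not a like comparison.

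The genes that separated P1 cells of bone marrow included those that separated the tissues as a whole. Tgfb1 stood at 3.13, 20.3 and 27.3 in muscle P1, at 79.9, 64.0 and 147 in periosteum P1 and at 853, 1332 and 917 in bone marrow P1. The log2 fold change was -6.23 ± 0.94 for muscle (limma adjusted p = 7.20e-05) and -3.46 ± 0.94 for periosteum (limma adjusted p = 0.0306). Grem1 stood at 2.54, 2.08 and 13.6 in muscle P1 and at 606, 147 and 608 in bone marrow P1 (-6.13 ± 1.30, limma adjusted p = 0.00257). Both genes were thus lower in muscle P1 than in bone marrow P1 without overlap.

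Id1, Gdf10, Tgfb2 and Id2 lay the other way. Id1 stood at 768, 1158 and 962 in muscle P1, at 1323, 1106 and 797 in periosteum P1 and at 35.8, 78.5 and 90.3 in bone marrow P1. It was higher in muscle by 3.88 ± 0.62 (limma adjusted p = 0.000154) and in periosteum by 4.03 ± 0.62 (limma adjusted p = 0.000238). Gdf10 stood at 1030, 720 and 1534 in muscle P1, 464, 731 and 529 in periosteum P1 and 39.1, 90.3 and 139 in bone marrow P1, with log2 fold changes of 3.71 ± 0.67 (limma adjusted p = 0.000501) and 2.82 ± 0.67 (limma adjusted p = 0.0119). Tgfb2 was higher in muscle P1 by 2.90 ± 0.86 (limma adjusted p = 0.0334), and Id2 in periosteum P1 by 2.90 ± 0.69 (limma adjusted p = 0.0132). The leukocyte sums of these groups were 18194 to 64127 in bone marrow P1, 431 to 761 in muscle P1 and 33.0 to 130 in periosteum P1, and their part was not tested.

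The spread of each gene was divided between tissue, subpopulation, their interaction and the libraries within groups, as shares of the sum of squares of log2(normalized count + 1). Tissue held 77.8% for Gdf10, 77.2% for Tgfb1, 71.7% for Tgfb2, 65.4% for Bmpr1b and 65.2% for Id1. Subpopulation held 61.9% for Bmp5, 55.5% for Bmp6, 54.1% for Chrdl1, 52.6% for Bmp3, 51.6% for Bmp1 and 50.1% for Bmp7. The genes named for tissue were ligands, a receptor and an Id gene, and those named for subpopulation were 4 BMP ligands, Bmp1 and an antagonist. The tissue list was cut at a higher share, and Inhba, not in it, had 53.1% for tissue. Among genes not named, tissue also held the largest share for the antagonist Grem1 (47.8%), and subpopulation for Id4 (49.4%) and Id3 (44.6%). The median shares of the 39 genes were 20.2% for tissue, 25.2% for subpopulation, 10.8% for the interaction and 37.4% within groups, and those of all genes tested were 16.2%, 13.7%, 18.9% and 40.4%. These medians are given as a description.

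**Figure D5:**
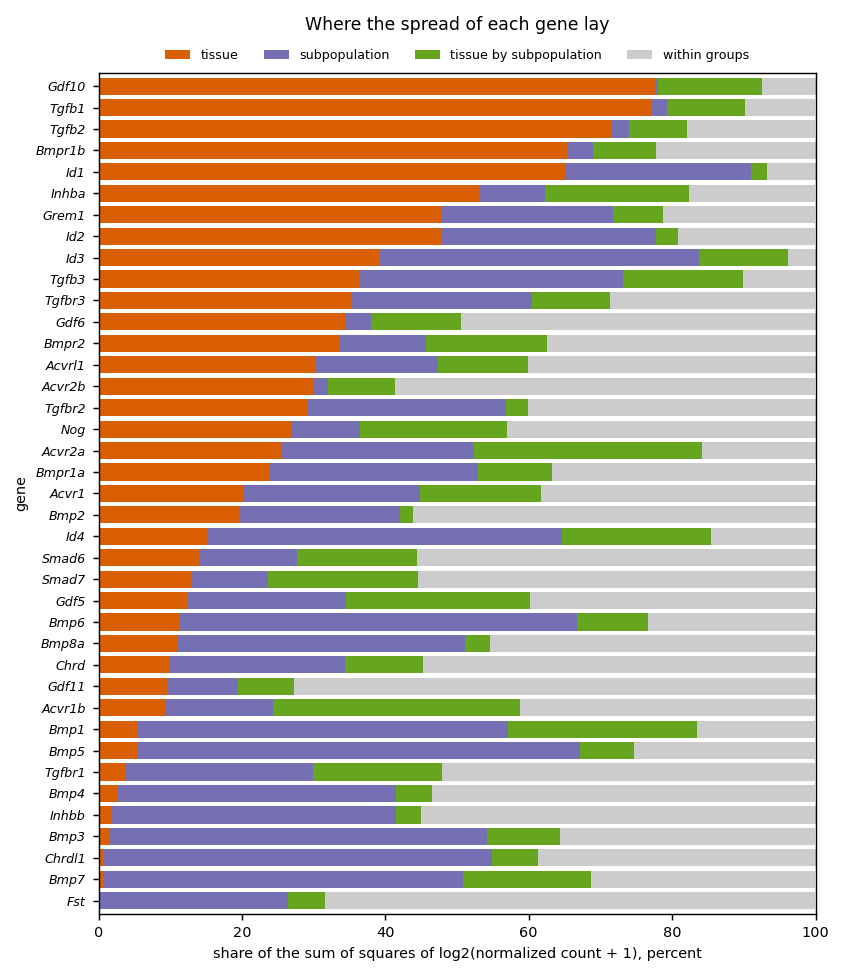
Share of the sum of squares of log2(normalized count + 1) over the 27 libraries that lay between tissues, between subpopulations, in their interaction and within groups, for the 39 genes tested, ordered by the tissue share. Gdf10 (77.8%) and Tgfb1 (77.2%) had the largest tissue shares and Bmp5 (61.9%) the largest subpopulation share.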

How the data were processed

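Prx1 cells were sorted from 3 tissues into 3 subpopulations, with 3 libraries per group, and sequenced after SMART-Seq v4 and Nextera XT preparation. Per the study's methods, the authors trimmed reads with Trim Galore, aligned them with STAR and normalized them with DESeq2. The counting tool, genome build and annotation are not given in the sources used here. The deposited table holds normalized counts, a signal per gene that the authors scaled between libraries, and whole reads could not be recovered from it, so depth is unknown and no count model was used.

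Values were tested as log2(normalized count + 1) with limma 3.58.1 (trended empirical Bayes) in R 4.3.3, with 9 group means over 27 libraries. Of 30153 genes, 11711 with fewer than 3 libraries at 10 or more were left out. P-values were adjusted by Benjamini-Hochberg over the 18442 genes tested and are two-sided. The replicate numbers did not pair libraries (mean correlation of deviations 0.000242 over 36 pairs of groups, -0.0592 to 0.0502). Alternatives were other pseudocounts, filters, scalings, subsets of groups, a replicate block and leaving out each library. The script was tested on simulated data. Members, lists and tests were chosen with earlier results of these data known. All 40 members could be named, with values per library for up to 5 called members in each direction of a comparison. Other pathway genes were named where called and among the 3 largest in a direction. Further values, such as those of Gdf5, Bmp2 or Acvr2a by library, were chosen after they were seen. Gene positions are from GENCODE M21 and per kilobase levels use its gene models.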

Additional observations from a re-analysis of the deposited data

Results flagged for a closer look

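The change of P1 cells against P2 and P3 differed between tissues for 2 genes by an interaction term in limma. For Bmp1 the change in bone marrow exceeded that in muscle by 4.54 on the log2 scale, and without the P2 libraries the difference was 2.35 and not called. For Id3 it exceeded that in muscle by 3.56 and that in periosteum by 3.40, and without the P2 libraries the differences were 2.68 and 2.75 and stayed called. No group had enough libraries to test for a single sample far from the others.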

How the results depend on the processing

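Of 95 calls of a member in a comparison, 53 held in every setting run and 63 held with each library left out in turn. Those that held in every setting included the bone marrow differences of Tgfb1, Tgfb2, Tgfb3, Gdf10, Grem1, Id1, Id2 and Id3 over all subpopulations and the larger Id3 change in bone marrow. Without the P2 libraries, 23 of 65 calls were lost and 2 changed direction, Id4 in P3 (log2 fold change -0.035) and Acvr2a in periosteum P1 (-0.12). That setting holds fewer samples, and other causes were not tested.

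Counts that moved were as follows. P1 over all tissues gave 6 genes with totals rescaled without haemoglobin and 6 without the P2 libraries. P3 gave 10 with rescaled totals. P1 in muscle gave 1 under both rescalings and quantile normalization, and 4 with only the groups compared. P1 in periosteum gave 3 with a pseudocount of 0.1, 2 with no filter, both rescalings or quantile normalization, and 0 with only the groups compared or without the P2 libraries. P1 in bone marrow gave 5 without haemoglobin, 15 by quantile normalization and 19 with only the groups compared, where all genes called rose from 18.9% to 31%. P1 cells of muscle against periosteum gave 1 with a pseudocount of 0.1, no filter, rescaling without haemoglobin or only the groups compared, and 0 with a mean of at least 50. P1 cells of bone marrow gave 15 against muscle with only the groups compared, and 8 against periosteum with a pseudocount of 5. The P1 change of bone marrow minus periosteum gave 2 by quantile normalization.

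With each library left out in turn, the counts ran from 5 to 11 for muscle against periosteum (11 without periosteum P2 replicate 1, 10 without replicate 3), 12 to 16 for muscle and 11 to 14 for periosteum against bone marrow, 7 to 14 in P1 cells over all tissues, 16 to 25 in P2 cells and 3 to 8 in P3 cells (3 without bone marrow P3 replicate 1 or muscle P3 replicate 2). P1 ran from 0 to 1 in muscle, 2 to 9 in periosteum and 4 to 13 in bone marrow. P1 cells ran from 0 to 4, 5 to 9 and 2 to 7 for muscle against periosteum, muscle against bone marrow and periosteum against bone marrow. The differences of P1 change ran from 0 to 2, 2 to 3 and 1 to 2, and the F-test from 26 to 32.

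The split of higher and lower calls moved with scaling. Muscle against periosteum gave 3 higher and 5 lower by quantile normalization. Periosteum against bone marrow gave 10 and 3 with rescaled totals and 10 and 2 by quantile normalization. P1 cells of muscle against periosteum gave 2 and 1 with rescaled totals and 0 and 2 by quantile normalization, and those of periosteum against bone marrow 5 and 0 with rescaled totals. The median over all genes moved from 0.11 to -0.43 in P2 with rescaled totals and from 0.56 to -0.01 in muscle against periosteum by quantile normalization. With a replicate block, 3 calls were lost (Acvr2a in P3, Bmp8a and Id4 in bone marrow P1, limma adjusted p 0.0595, 0.0518 and 0.0599), P1 in bone marrow gave 7, and the numbers did not pair the libraries. Depth is unknown, so no limit for values at 0 can be given.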
